A study of Danio rerio with 12 samples.

Results

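The response of the adult heart to ventricle resection was profiled in mvp-/- zebrafish by RNA sequencing of ventricle tissue at 7 days post amputation (7dpa) and after sham surgery. The libraries were chosen by their genotype and treatment labels, and they are 6 of the 12 libraries in the series, 3 mvp-/- 7dpa and 3 mvp-/- sham. The other 6 are wild-type (WT), 3 at 7dpa and 3 after sham surgery, and are used here to set the mvp-/- response against that of WT hearts. The mvp-/- fish carry 1 CRISPR/Cas9 allele in which, per the study, the whole mvp coding region is deleted. The deletion is in the germline and so is not limited to 1 cell type. The study reports that mvp mRNA was absent in mvp-/- embryos, and counts of the gene in these hearts are given below. The lines were kept on an AB background. Of the age of the fish it is given that they were adult. The time from sham surgery to collection is not given in the sources used here, so the states may not be matched in time. The tissue, labelled adult heart, was the ventricle below the plane of surgery. The study's methods give a number of hearts but do not say how they were divided over the libraries, so the p-values measure only the spread between these libraries, which may be technical.

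The gene mvp encodes the major vault protein, which builds the shell of the vault, a large ribonucleoprotein particle of the cytoplasm that also holds the proteins Tep1 and Parp4. A zebrafish ventricle that has lost its apex regrows it. The wound is first sealed by a clot and entered by macrophages and other leukocytes, the epicardium and endocardium become active, fibroblasts lay down a transient matrix, and cardiomyocytes near the wound loosen their sarcomeres, shift their metabolism and divide. Gene symbols are those of the gene name table, in which many zebrafish genes carry the symbol of their human counterpart and some symbols stand for several zebrafish copies, which are told apart here by Ensembl identifier.

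Library totals ranged from 21462182 to 23727129 counts in the 6 mvp-/- libraries and from 21356163 to 26684651 counts in all 12. At this depth 3 counts stand for 0.116 to 0.154 CPM, the count scaled to a common library size, in the mvp-/- libraries, a floor that covers counting error only. The targeted gene, listed as MVP, had 16.6, 17.9 and 19.4 CPM in the mvp-/- 7dpa libraries, against 4.67, 5.4 and 5.0 CPM in the mvp-/- sham libraries, and 189, 138 and 136 CPM in the WT 7dpa libraries, against 179.7, 193 and 182 CPM in the WT sham libraries. The mvp-/- libraries thus held fewer reads assigned to the gene than WT libraries, though more than the floor. The counts do not show where in the gene those reads lie. Within mvp-/- hearts these residual counts were higher at 7dpa (log2 fold change 1.84, SE 0.14, adjusted p = 1.29e-06). The other vault proteins were called lower for tep1 (log2 fold change -0.66, adjusted p = 0.00668) and were not called for parp4 (0.28, adjusted p = 0.149). The mvp-/- libraries were close to each other, with a biological coefficient of variation of 5.22% at 7dpa and 4.77% after sham surgery, against 26.6% in WT 7dpa and 7.86% in WT sham libraries. WT 7dpa replicate 1 stood apart from the other libraries of its group, and since one estimate of the spread is shared by all groups, it also enters the errors of the mvp-/- comparison. The mvp-/- sham libraries stood apart from the WT sham libraries in stress genes, with 34 of 35 immediate early genes at a higher level (median log2 ratio of mvp-/- to WT 2.383). Every mvp-/- response given here is measured against these sham libraries, and the part of their sham level in the changes was not tested.

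Between the mvp-/- 7dpa and mvp-/- sham libraries, 4372 of the 16604 genes tested differed, or 26.3%, at an adjusted p under 0.05. Whether resection or another difference between the fish of the groups gave these changes was not tested. Of the called genes, 2150 rose (12.9% of genes tested) and 2222 fell (13.4%). Counts of list members below stand against these shares, and counts near them are not read as a change of the list. The median log2 fold change over all genes was 0.018, with 7dpa over sham throughout, and that of the size of the change among called genes was 0.65. Large changes were mostly rises, since 961 of the called genes that rose but 305 of those that fell changed by at least 1 on the log2 scale. The libraries of both states did not overlap for 4351 of the 4372 called genes. The share without overlap over all genes tested was not counted. States without overlap thus nearly follow from a call, and where they are mentioned below they add little to it. Without WT 7dpa replicate 1 the number of called genes was 7039, with 3554 higher and 3485 lower, and 4370 of the 4372 calls remained. In a fit of the 6 mvp-/- libraries alone it was 7072, with 3638 higher and 3434 lower. Below, a value after a gene name or after "rose by" or "fell by" is a log2 fold change where no other unit is given, and "called" means an adjusted p under 0.05 in edgeR's quasi-likelihood test.

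Among genes with a symbol, a mean of at least 1 CPM and states that did not overlap, the 12 largest rises included several genes of the extracellular matrix. COL12A1 (ENSDARG00000019601), a copy of the gene for the alpha chain of collagen XII, had 21.2, 21 and 22.9 CPM in the mvp-/- 7dpa libraries, against 0.923, 0.909 and 0.555 CPM in the mvp-/- sham libraries. Its rise was large (log2 fold change 4.77, SE 0.33, adjusted p = 8.89e-07), and states without overlap were a condition for this list. The list also held col11a1b, a fibrillar collagen gene, with a log2 fold change of 4.36, adamtsl7, which encodes a secreted ADAMTS-like protein, at 3.92 ± 0.141 CPM at 7dpa and 0.181 ± 0.0271 CPM after sham surgery, and PAMR1 (ENSDARG00000103184) at 2.88 ± 0.471 CPM at 7dpa and 0.148 ± 0.0504 CPM after sham surgery (SD, n = 3 each). SALL1 (ENSDARG00000075891), which encodes a zinc finger transcription factor, had 5.84 ± 0.878 CPM at 7dpa and 0.198 ± 0.0536 CPM after sham surgery, while SALL1 (ENSDARG00000074319) was not called (-0.09, adjusted p = 0.368). The uncharacterised gene si:ch211-190k17.19 had 3.22, 2.48 and 2.49 CPM in the mvp-/- 7dpa libraries, against 0, 0 and 0 CPM in the mvp-/- sham libraries. Against the floor of 3 counts per library it was at least 18.43-fold higher at 7dpa. Immune genes among the largest rises were mhc2dab, a chain of class II major histocompatibility molecules (6.05), and ifi44a8, of an interferon-induced family (2.47 ± 0.332 CPM at 7dpa and 0.0847 ± 0.0773 CPM after sham surgery). The remaining ones were OIT3 (3.69 ± 0.686 CPM at 7dpa and 0.0479 ± 0.0463 CPM after sham surgery), zgc:101699 (3.56 ± 0.415 CPM at 7dpa and 0.0833 ± 0.0321 CPM after sham surgery), cdh29 (5.99 ± 1.37 CPM at 7dpa and 0.151 ± 0.105 CPM after sham surgery) and si:ch211-194m7.4 (log2 fold change 4.18). OIT3, zgc:101699 and cdh29 were far higher in WT sham than in mvp-/- sham libraries, with levels given at the end. In WT hearts their log2 fold changes were -3.78, -1.24 and 0.38.

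The 12 largest falls included enzymes of lipid and amino acid metabolism. DGAT2, which makes triglyceride, had 10.2, 12.7 and 7.16 CPM in the mvp-/- 7dpa libraries, against 127, 174 and 136 CPM in the mvp-/- sham libraries (log2 fold change -3.86, SE 0.27, adjusted p = 7.95e-07). SCD, the desaturase that makes monounsaturated fatty acids, had 2.67, 3.55 and 4.13 CPM in the mvp-/- 7dpa libraries, against 26.5, 27.5 and 28.1 CPM in the mvp-/- sham libraries (log2 fold change -2.99, SE 0.25, adjusted p = 3.01e-06). Both genes were low at 7dpa, and states without overlap were again a condition for the list. The cytochrome P450 gene cyp2ad2 fell by 5.08 and CTH (ENSDARG00000032206), which makes cysteine from cystathionine, fell by 2.8 on the log2 scale. The other falls were myrfl (0.0549 ± 0.0631 CPM at 7dpa and 6.9 ± 1.24 CPM after sham surgery), znf1179 (0.0532 ± 0.021 CPM at 7dpa and 4.1 ± 0.357 CPM after sham surgery), the kinase gene BRSK2 (0.0949 ± 0.0633 CPM at 7dpa and 2.07 ± 0.319 CPM after sham surgery), leap2, an antimicrobial peptide gene (-3.18), FAM167A (-2.89), nme2b.2, a nucleoside diphosphate kinase gene (-2.82), and RUNX3, a transcription factor gene of lymphocytes among other cells (-2.62). Counts of si:ch211-261i17.2 were 0 in all mvp-/- 7dpa libraries, against 3.69, 3.69 and 3.7 CPM in the mvp-/- sham libraries, at least 30.55-fold lower at 7dpa by the same floor. In WT libraries this gene was instead higher at 7dpa than after sham surgery, with levels given at the end.

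**Figure D1:**
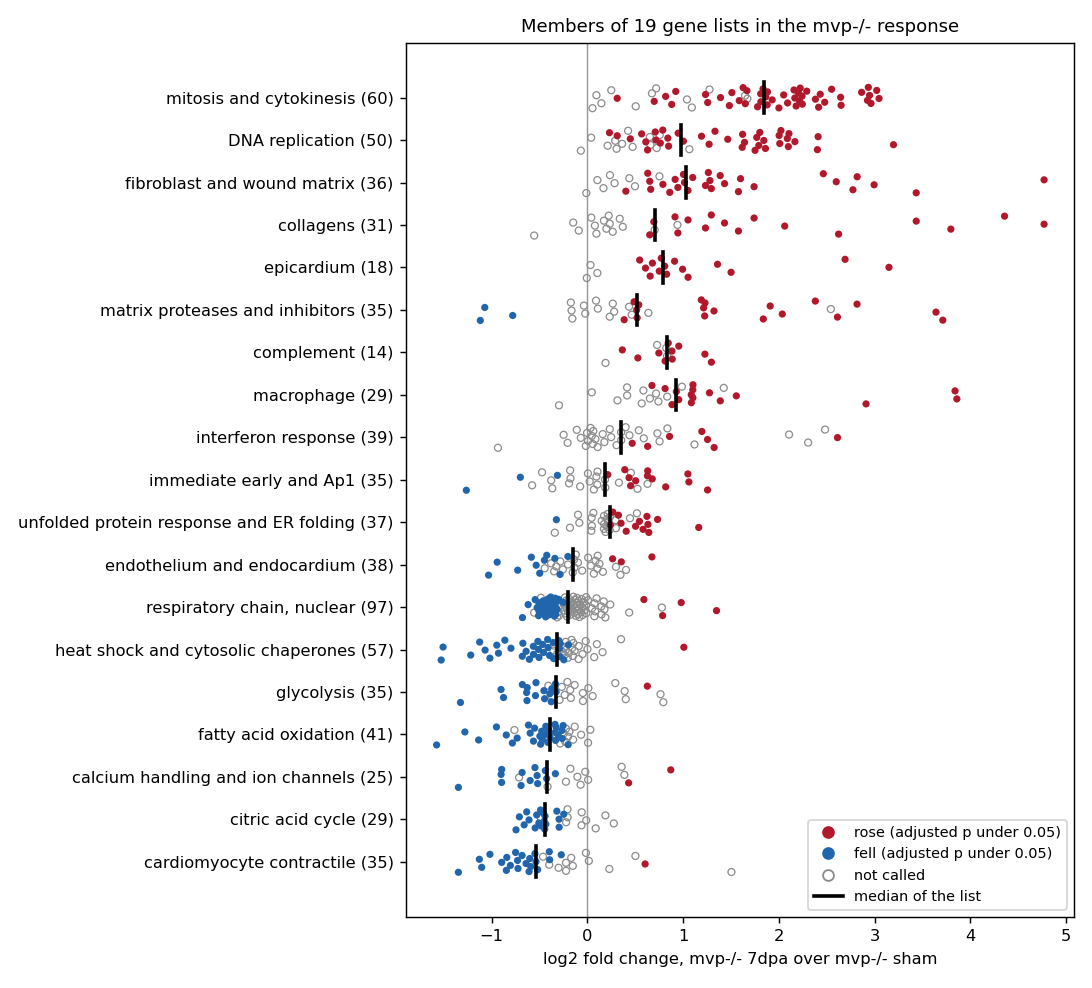
Log2 fold change of mvp-/- 7dpa over mvp-/- sham libraries (horizontal axis) for each tested member of the gene lists named on the vertical axis, with the number of tested members in parentheses. Filled red points rose and filled blue points fell at an adjusted p under 0.05, open points were not called and the black bar is the median of the list, which ran from 1.849 for mitosis and cytokinesis to -0.537 for cardiomyocyte contractile genes.

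Genes of the cell cycle rose together. Of 50 tested DNA replication genes, 37 rose and 0 fell, with a median log2 fold change of 0.976, against 12.9% higher and a median of 0.018 over all genes. Of 60 tested genes of mitosis and cytokinesis, 48 rose and 0 fell, with a median of 1.849. The replicative helicase that unwinds origins is built of the MCM2 to MCM7 proteins, and all of these genes rose, from 0.84 for MCM7 to 2.41 for MCM3. MCM3 had 35.7, 34 and 37.1 CPM in the mvp-/- 7dpa libraries, against 6.87, 6.42 and 6.8 CPM in the mvp-/- sham libraries (log2 fold change 2.41, SE 0.13, adjusted p = 1.11e-07). MCM2 had 44.7, 47.8 and 42.1 CPM in the mvp-/- 7dpa libraries, against 10.3, 12.4 and 10.7 CPM in the mvp-/- sham libraries (log2 fold change 2.01, SE 0.15, adjusted p = 1.78e-06). Each helicase gene was thus higher in every 7dpa library than in any sham library. PRIM2, a subunit of the primase that starts each new DNA strand, had 11, 12.3 and 12.4 CPM in the mvp-/- 7dpa libraries, against 1.28, 0.96 and 1.62 CPM in the mvp-/- sham libraries (log2 fold change 3.2, SE 0.19, adjusted p = 1.66e-07). The nucleotide supply genes TYMS, for thymidylate synthase, and RRM2 (ENSDARG00000020711), for a subunit of ribonucleotide reductase, rose by 2.1 and 2.11, whereas DUT (0.04) and RRM2B (-0.07) were not called.

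Among mitosis genes, CCNA2, the cyclin of S phase and G2, had 4.81, 5.32 and 4.66 CPM in the mvp-/- 7dpa libraries, against 0.667, 0.606 and 0.648 CPM in the mvp-/- sham libraries (log2 fold change 2.93, SE 0.17, adjusted p = 1.83e-07). TOP2A, the topoisomerase that untangles sister chromosomes, had 5.08, 5.78 and 4.7 CPM in the mvp-/- 7dpa libraries, against 0.821, 0.758 and 0.555 CPM in the mvp-/- sham libraries (log2 fold change 2.86, SE 0.25, adjusted p = 5.55e-06). The spindle motor gene kif11 rose by 3.02, and anln, whose product anillin organises the cleavage furrow, had 8.1, 7.8 and 9.53 CPM in the mvp-/- 7dpa libraries, against 0.821, 0.859 and 1.57 CPM in the mvp-/- sham libraries (log2 fold change 2.95, SE 0.28, adjusted p = 1.08e-05). CCNB1, the mitotic cyclin, rose by 1.88, with a mean of 1.88 ± 0.502 CPM at 7dpa and 0.51 ± 0.13 CPM after sham surgery (SD, n = 3 each). These genes were scarce in sham ventricles, and no 7dpa library overlapped a sham library. With at least 10 counts required in every library, 24 genes of the mitosis list could be tested, of which 18 were called higher (median 1.599). BUB3 (0.05) and LMNB1 (0.15) were among the members not called. The counts do not say which cells were cycling, and in bulk tissue more cells of a type and more RNA per cell cannot be told apart.

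The wound matrix and fibroblast genes formed the other large group that rose. Of 36 tested members 28 rose and 0 fell (median 1.033), and so did 16 of 31 tested collagen genes, with 0 lower (median 0.703). The summed level of the fibroblast and wound matrix list was 5003 to 5093 CPM in the mvp-/- 7dpa libraries and 2219 to 2294 CPM in the mvp-/- sham libraries. The second copy of collagen XII, COL12A1 (ENSDARG00000078322), had 72.8, 71.4 and 69.2 CPM in the mvp-/- 7dpa libraries, against 7.59, 5.86 and 6.29 CPM in the mvp-/- sham libraries (log2 fold change 3.43, SE 0.24, adjusted p = 9.38e-07). COL1A2, a chain of the main fibrillar collagen of scar tissue, had 518, 528 and 536 CPM in the mvp-/- 7dpa libraries, against 156, 153 and 163 CPM in the mvp-/- sham libraries, and the COL1A1 and col1a1a genes for its partner chain rose by 1.43 and 1.58. Fibronectin, a provisional matrix protein, is encoded by copies listed as FN1. FN1 (ENSDARG00000019815) had 90.1, 87.1 and 91.7 CPM in the mvp-/- 7dpa libraries, against 14.2, 13.5 and 11.6 CPM in the mvp-/- sham libraries (log2 fold change 2.77, SE 0.10, adjusted p = 3.64e-09). FN1 (ENSDARG00000006526) had 1187, 1253 and 1126 CPM in the mvp-/- 7dpa libraries, against 677, 649 and 637 CPM in the mvp-/- sham libraries (log2 fold change 0.86, SE 0.11, adjusted p = 0.000101). Both fibronectin genes rose without overlap, the first far more than the second. The microfibril gene mfap2 rose by 2.6, COL8A1 by 2.06 and the hyaluronan synthase gene HAS1 by 2.84. The smooth muscle and myofibroblast markers behaved unevenly, since acta2 (-0.01, adjusted p = 0.923) and TAGLN (ENSDARG00000033466) (0.1) were not called and TAGLN (ENSDARG00000045408) rose by 1.28.

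Enzymes that build and cut the matrix rose with it. In the list of collagen crosslinking and matrix assembly 14 of 27 tested members rose and 1 fell (median 0.453). LOX, the lysyl oxidase that crosslinks collagen and elastin, had 18.1, 18.1 and 19.95 CPM in the mvp-/- 7dpa libraries, against 2.1, 2.27 and 2.64 CPM in the mvp-/- sham libraries (log2 fold change 2.99, SE 0.19, adjusted p = 3.64e-07). LOXL2 rose by 1.45, the lysyl hydroxylase gene PLOD2 by 1.51, SERPINH1 (ENSDARG00000019949), the collagen chaperone, by 1.01, and transglutaminase gene TGM2 (ENSDARG00000074094) by 0.98. The 1 member that fell in this list was the prolyl hydroxylase gene P4HA2 (-0.6). For matrix assembly genes the number that fell was 2 without WT 7dpa replicate 1. Among matrix proteases and inhibitors 18 of 35 rose and 3 fell. MMP2, a gelatinase of fibroblasts, had 259.9, 243 and 272 CPM in the mvp-/- 7dpa libraries, against 114, 109 and 111 CPM in the mvp-/- sham libraries (log2 fold change 1.21, SE 0.18, adjusted p = 0.000288), and its membrane-bound activator, MMP14 (ENSDARG00000008388), rose by 1.91. The inhibitor genes TIMP2 (ENSDARG00000075261) and TIMP2 (ENSDARG00000061226) rose by 2.04 and 0.52, and adam8a, a protease gene of leukocytes, by 2.38. The members that fell were ADAM17 (ENSDARG00000093093) (-1.12), ADAMTS8 (ENSDARG00000058252) (-1.07) and ADAM12 (ENSDARG00000079068) (-0.78). In the coagulation and fibrinolysis list 4 of 20 tested members rose and 3 fell (median 0.173), against 12.9% higher and 13.4% lower over all genes. The rises included PLAT, the tissue plasminogen activator (1.02), and f13a1b, a chain of the factor that crosslinks fibrin (1.08). Another gene for such a chain, F13A1 (ENSDARG00000045453), had a log2 fold change of -0.63 instead, with its levels given further below. The falls called in the list were F7 (ENSDARG00000100782) (-1.43), f3b (-0.72) and F10 (-0.44), genes of the clotting cascade. For coagulation and fibrinolysis genes the number that rose was 2 without mvp-/- sham replicate 2 and 8 without WT 7dpa replicate 1, and the number that fell was 1 without mvp-/- sham replicate 3 and 5 without WT 7dpa replicate 1.

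Epicardial genes rose. Of 18 tested markers of the epicardium, the cell layer that covers the heart, 15 rose and 0 fell (median 0.79), and the summed level was 2759 to 2787 CPM in the mvp-/- 7dpa libraries and 1774 to 1842 CPM in the mvp-/- sham libraries. The defining marker TBX18 had 25.3, 24.2 and 25.9 CPM in the mvp-/- 7dpa libraries, against 11.6, 12.1 and 14.2 CPM in the mvp-/- sham libraries (log2 fold change 0.99, SE 0.17, adjusted p = 0.000842). The other defining marker, TCF21, had 14.7, 14.2 and 11.8 CPM in the mvp-/- 7dpa libraries, against 11, 14 and 14.8 CPM in the mvp-/- sham libraries. Its states overlapped and it was not called (log2 fold change 0.03, adjusted p = 0.905). The Wilms tumour gene wt1b, a marker of activated epicardium, rose by 2.69, and its paralog WT1 by 1.05. The small proteoglycan gene LUM had 21, 22.7 and 20.7 CPM in the mvp-/- 7dpa libraries, against 2.46, 2.63 and 2.17 CPM in the mvp-/- sham libraries (log2 fold change 3.15, SE 0.41, adjusted p = 0.000138), and DCN rose by 0.77. ALDH1A2, which makes retinoic acid in epicardium and endocardium, rose by 0.68 on the log2 scale, with a mean of 188 ± 1.14 CPM at 7dpa and 117 ± 2.39 CPM after sham surgery (SD, n = 3 each). Of 20 tested genes of retinoic acid metabolism and signalling 6 rose and 1 fell, the largest rise being that of CRABP2 (ENSDARG00000030449), a retinoic acid binding protein (2.17). CYP26B1, which degrades retinoic acid, was not called (0.00). For retinoic acid genes the number that fell was 0 without mvp-/- 7dpa replicate 1 or 3 or mvp-/- sham replicate 3 and 4 without WT 7dpa replicate 1.

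Cardiomyocyte genes moved the other way. Of 35 tested contractile genes 22 fell and 1 rose (median -0.537), against 13.4% lower over all genes, and the summed level was 80067 to 81632 CPM in the mvp-/- 7dpa libraries and 107403 to 111490.0 CPM in the mvp-/- sham libraries. The defining markers lay at high levels in every library. TNNT2 (ENSDARG00000020610), cardiac troponin T, had 1646, 1622 and 1789 CPM in the mvp-/- 7dpa libraries, against 2245, 2163 and 2255 CPM in the mvp-/- sham libraries (log2 fold change -0.4, SE 0.10, adjusted p = 0.0122). MYL7, the atrial and ventricular myosin light chain of zebrafish, averaged 17382 ± 301 CPM at 7dpa and 21415 ± 413 CPM after sham surgery (SD, n = 3 each), and its lower level at 7dpa was not called (-0.3, adjusted p = 0.0706). The gene listed as MYH7, a ventricular type of myosin heavy chain, had 21735, 22524 and 20889 CPM in the mvp-/- 7dpa libraries, against 33936, 34699.5 and 31931 CPM in the mvp-/- sham libraries (log2 fold change -0.63, SE 0.09, adjusted p = 0.00018). The phospholamban gene pln2 fell most (-1.35), and the Xin repeat genes of the intercalated disc, xirp1 (ENSDARG00000030722) and xirp1 (ENSDARG00000092427), fell by 1.1 and 1.13. ACTA1 (ENSDARG00000036371) and ACTA1 (ENSDARG00000055618), striated muscle actins, fell by 0.9 and 0.85. The exception was a myosin heavy chain gene listed as MYH6 (ENSDARG00000079564), which rose (log2 fold change 0.6, SE 0.20, adjusted p = 0.0435). For cardiomyocyte contractile genes the number that rose was 0 without mvp-/- 7dpa replicate 1, 2 or 3 or mvp-/- sham replicate 1, 2 or 3 or WT sham replicate 1, 2 or 3 and 4 without WT 7dpa replicate 1.

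The calcium and ion channel genes of cardiomyocytes fell with the sarcomere. Of 25 tested members 13 fell and 2 rose (median -0.425). The calcium pump of the sarcoplasmic reticulum, atp2a2a, had 8073, 8186 and 8155 CPM in the mvp-/- 7dpa libraries, against 13221, 12753 and 13191 CPM in the mvp-/- sham libraries (log2 fold change -0.68, SE 0.14, adjusted p = 0.00282). SLC8A1 (ENSDARG00000013422), the sodium and calcium exchanger, fell by 0.9 and CACNA1C, the pore of the L-type calcium channel, by 0.69. KCNE4, an accessory subunit of potassium channels, rose instead, with 195, 186 and 189 CPM in the mvp-/- 7dpa libraries, against 108, 102 and 102 CPM in the mvp-/- sham libraries (log2 fold change 0.87, SE 0.06, adjusted p = 7.47e-07). Of the stress and dedifferentiation genes of cardiomyocytes, the natriuretic peptide genes were not called: nppa had 956, 905 and 946 CPM in the mvp-/- 7dpa libraries, against 967, 927 and 884 CPM in the mvp-/- sham libraries, and nppb had 1084, 1027 and 1194 CPM in the mvp-/- 7dpa libraries, against 956, 912 and 949.9 CPM in the mvp-/- sham libraries. nppa overlapped between the states, while nppb lay slightly higher at 7dpa (log2 fold change 0.23, SE 0.11, adjusted p = 0.15). ANKRD1, a titin-binding stress gene, did rise, with 117, 112 and 115 CPM in the mvp-/- 7dpa libraries, against 53.6, 53.5 and 54.3 CPM in the mvp-/- sham libraries (log2 fold change 1.09, SE 0.18, adjusted p = 0.00081), and so did CCN2 (0.83), a connective tissue growth factor gene. MEF2C (ENSDARG00000029764), a transcription factor of muscle genes, fell by 0.87. In the list of cardiomyocyte dedifferentiation and development 2 of 19 tested members rose and 5 fell (median -0.077). The shares over all genes were 12.9% higher and 13.4% lower. At the junctions between cardiomyocytes, the plakophilin gene pkp2 fell by 1.08, with a mean of 26 ± 1.21 CPM at 7dpa and 54.8 ± 1.42 CPM after sham surgery (SD, n = 3 each), while the connexin gene GJA1 rose by 0.85. In the list of gap junctions and intercalated disc 3 of 20 tested members rose and 6 fell (median 0.012). When an mvp-/- library was left out, the number that rose was as low as 1 and the number that fell as low as 2.

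Genes of energy metabolism fell. Of 41 tested genes of fatty acid oxidation 29 fell and 0 rose (median -0.39), as did 19 and 0 of 29 genes of the citric acid cycle (median -0.442). ACADVL, the first dehydrogenase of long-chain fatty acid oxidation, had 1649, 1663 and 1616 CPM in the mvp-/- 7dpa libraries, against 2761, 2887 and 2834 CPM in the mvp-/- sham libraries (log2 fold change -0.78, SE 0.06, adjusted p = 2.45e-06). FABP3, the fatty acid carrier of heart muscle, had 712, 748 and 721 CPM in the mvp-/- 7dpa libraries, against 1247, 1316 and 1359.7 CPM in the mvp-/- sham libraries (log2 fold change -0.85, SE 0.07, adjusted p = 4.11e-06). MLYCD, which removes the malonyl-CoA brake on fatty acid entry into mitochondria, fell most (-1.57), followed by the uptake gene SLC27A1 (ENSDARG00000104949) (-1.28) and ppargc1b, a coactivator of mitochondrial genes (-1.14). In the citric acid cycle ogdha, a subunit of the oxoglutarate dehydrogenase complex, fell by 0.75 and MDH2, mitochondrial malate dehydrogenase, by 0.48. Glycolysis fell as well, in 16 of 35 tested genes against 1 that rose (median -0.326). PFKM (ENSDARG00000060797), the muscle phosphofructokinase, fell by 0.68, LDHA by 0.45 and SLC16A3 (ENSDARG00000045051), a lactate exporter, by 0.88, while GAPDH was not called (-0.21). For glycolysis genes the number that rose was 0 without mvp-/- 7dpa replicate 1 or 3 or mvp-/- sham replicate 1 or 2 and 2 without WT 7dpa replicate 1. Of 97 nuclear genes of the respiratory chain 33 fell and 4 rose (median -0.202). For nuclear respiratory chain genes the number that rose was 2 without mvp-/- 7dpa replicate 2 or mvp-/- sham replicate 1 and 7 without WT 7dpa replicate 1. The changes were small, with cycsb, a cytochrome c, at -0.51 and ATP5F1B, a catalytic subunit of ATP synthase, at -0.4.

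Mitochondrial ribosomal protein genes fell in 28 of 75 tested members and rose in 0 (median -0.211). For mitochondrial ribosome genes the number that fell was 18 without mvp-/- 7dpa replicate 1 or mvp-/- sham replicate 2 or 3. Of the 13 respiratory chain genes of the mitochondrial genome 2 fell (median -0.134), MT-CYB by 0.35 and MT-CO1 by 0.32 on the log2 scale. For mitochondrially encoded genes the number that fell was 0 without mvp-/- 7dpa replicate 1, 2 or 3 or mvp-/- sham replicate 1, 2 or 3 or WT sham replicate 1 and 7 without WT 7dpa replicate 1. Mitochondrial transcripts took 10.46% to 10.6% of counts in the mvp-/- 7dpa and 10.26% to 10.63% in the mvp-/- sham libraries. This share of unscaled counts overlapped between the states. The TMM factors, which scale library sizes, were 1.094 to 1.102 in the mvp-/- 7dpa and 0.9019 to 0.9117 in the mvp-/- sham libraries. Falls as small as those of mitochondrial genes, here and in other lists, thus depend on this scaling. In the sterol and fatty acid synthesis list 3 of 27 tested members rose and 2 fell (median -0.002), against 12.9% higher and 13.4% lower over all genes. For sterol and fatty acid synthesis genes the number that rose was 1 without mvp-/- sham replicate 3, and the number that fell was 1 without mvp-/- sham replicate 1. The following genes of lipid droplets and triglyceride metabolism were chosen after their values were seen and stand for no list, although LPL is also a member of the fatty acid oxidation list. CIDEC, a protein of lipid droplets, had 5.74, 6.11 and 6.38 CPM in the mvp-/- 7dpa libraries, against 24.6, 24.4 and 23.2 CPM in the mvp-/- sham libraries (log2 fold change -1.99, SE 0.09, adjusted p = 3.76e-08). g0s2, an inhibitor of triglyceride lipase, had 102, 102 and 106 CPM in the mvp-/- 7dpa libraries, against 371, 373 and 386 CPM in the mvp-/- sham libraries (log2 fold change -1.86, SE 0.07, adjusted p = 3.64e-09). DGAT1 (ENSDARG00000103503), the other diacylglycerol acyltransferase, fell by 2.09, whereas DGAT1 (ENSDARG00000054914) was not called (0.52). The lipoprotein lipase gene LPL fell by 0.25.

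The cytosolic chaperones fell. Of 57 tested heat shock and cytosolic chaperone genes 32 fell and 1 rose (median -0.316), and the 1 that rose was the collagen chaperone SERPINH1 already named, which works in the endoplasmic reticulum. For cytosolic chaperones the number that rose was 2 without WT 7dpa replicate 1. After sham surgery 50 of the 57 genes were at a higher level in mvp-/- than in WT libraries (median log2 ratio 0.525), and the part of that sham level in the fall was not tested. The inducible hspa1b, of the Hsp70 family, had 229, 234 and 232 CPM in the mvp-/- 7dpa libraries, against 649.9, 659.8 and 665 CPM in the mvp-/- sham libraries (log2 fold change -1.51, SE 0.10, adjusted p = 7.82e-07). The stress-inducible hsp90aa1.1 had 1502, 1511 and 1569.8 CPM in the mvp-/- 7dpa libraries, against 3216, 3169 and 3225 CPM in the mvp-/- sham libraries (log2 fold change -1.07, SE 0.17, adjusted p = 0.000509). HSPA4 (ENSDARG00000004754) and HSPB1 fell by 0.93 and 0.51. The constitutive members HSPA8 (ENSDARG00000068992) (-0.02) and HSP90AB1 (-0.13) were not called. Reads of the near-identical Hsp70 copies could have been split in counting. Chaperones of the endoplasmic reticulum went the opposite way, with 13 of 37 tested genes higher and 1 lower (median 0.232). For ER folding genes the number that rose was 7 to 8 without mvp-/- 7dpa replicate 1, 2 or 3 or mvp-/- sham replicate 2 or 3 and 25 without WT 7dpa replicate 1, and the number that fell was 0 without mvp-/- 7dpa replicate 1, 2 or 3 or mvp-/- sham replicate 1 or 3. HSP90B1 rose by 0.63, PDIA4 by 0.54 and SEC61B, a subunit of the protein translocation channel, by 0.73, and HSPA5, the main chaperone of the compartment, was not called (0.52, adjusted p = 0.0778).

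**Figure D2:**
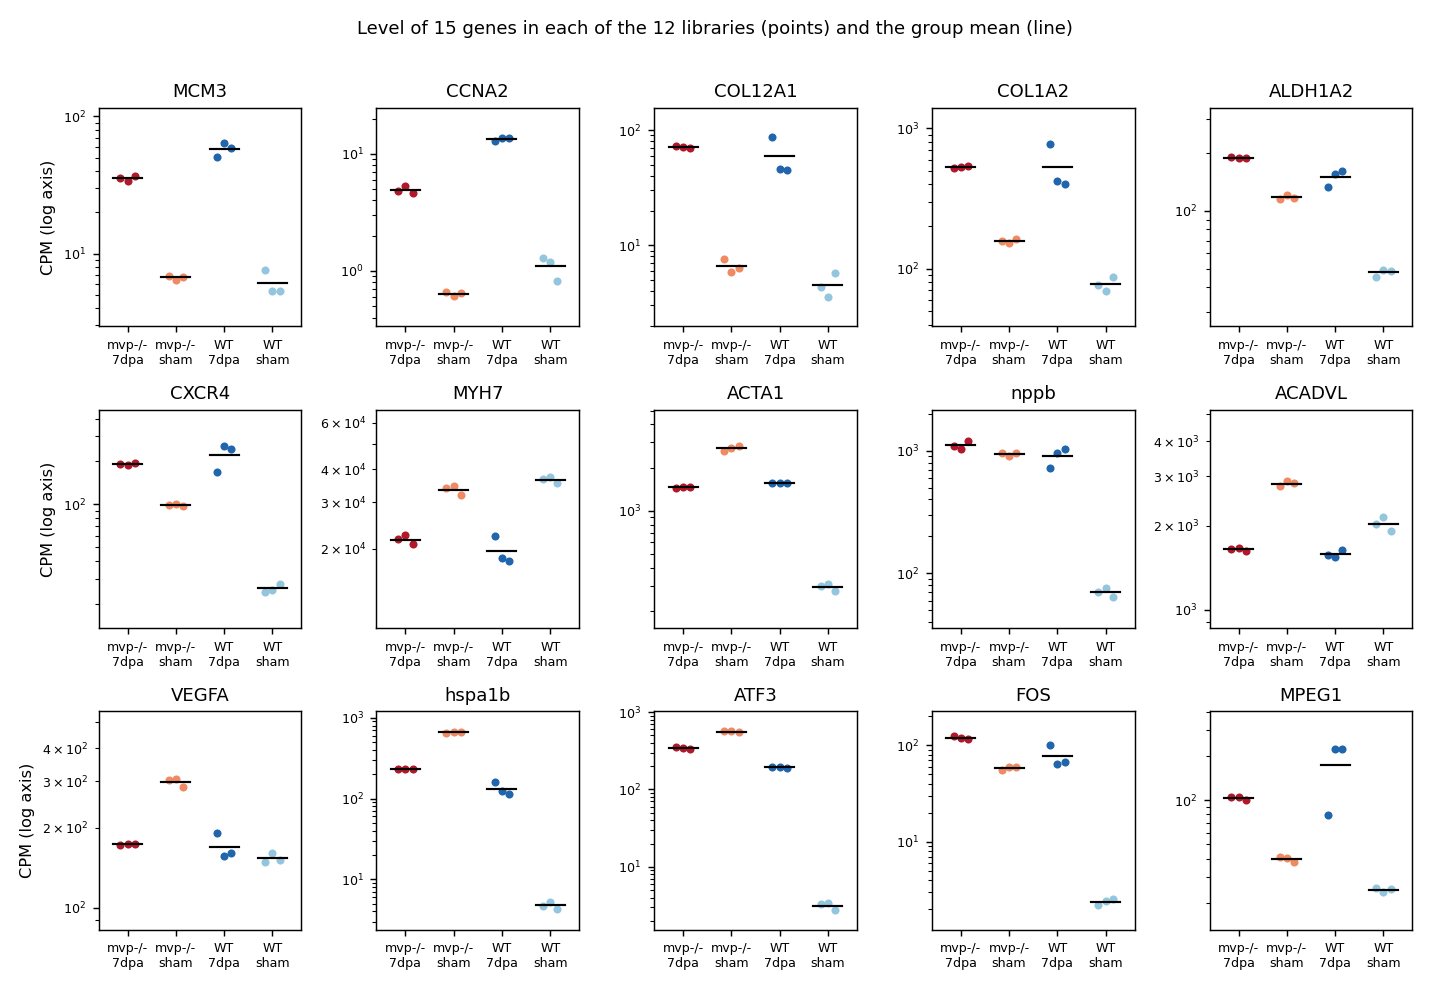
Level of each gene in CPM on a log axis in the 12 libraries (points), with the mean of each group (line), for mvp-/- 7dpa, mvp-/- sham, WT 7dpa and WT sham hearts. COL12A1, ACTA1, CXCR4, MPEG1 and VEGFA each show one of the copies that share the symbol. MCM3, CCNA2, COL12A1 and COL1A2 were higher at 7dpa in mvp-/- libraries, hspa1b, ATF3 and ACADVL were lower, and nppb, FOS, ATF3 and hspa1b were far lower in WT sham than in mvp-/- sham libraries.

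Macrophage genes rose. Of 29 tested markers 16 rose and 0 fell (median 0.929), and the summed level was 1847 to 1892 CPM in the mvp-/- 7dpa libraries and 989 to 1022 CPM in the mvp-/- sham libraries. For macrophage genes the number that rose was 10 without mvp-/- sham replicate 2 and 25 without WT 7dpa replicate 1, and the number that fell was 1 without WT 7dpa replicate 1. The defining marker MPEG1 (ENSDARG00000055290), a pore-forming protein of macrophages, had 106, 106 and 100.3 CPM in the mvp-/- 7dpa libraries, against 41.1, 40.1 and 37.8 CPM in the mvp-/- sham libraries (log2 fold change 1.39, SE 0.28, adjusted p = 0.00259). The other defining marker, csf1ra, which encodes the receptor of the macrophage growth factor Csf1, was not called, with 5.85, 5.9 and 7.61 CPM in the mvp-/- 7dpa libraries, against 8.56, 7.63 and 7.59 CPM in the mvp-/- sham libraries. Its states overlapped. The lineage transcription factor IRF8 rose by 1.1 and cd74b, a chaperone of class II molecules, by 1.1. The apolipoprotein E gene apoeb had 81.4, 81.8 and 79.1 CPM in the mvp-/- 7dpa libraries, against 5.8, 5.66 and 5.46 CPM in the mvp-/- sham libraries (log2 fold change 3.84, SE 0.11, adjusted p = 4.66e-10), one of the largest changes of the list. Complement genes rose in 10 of 14 tested members, with 0 lower (median 0.828). c1qb, a chain of the first component, rose by 0.88, and c7a, a part of the lytic complex, had 151, 151 and 152 CPM in the mvp-/- 7dpa libraries, against 64, 62.1 and 59.2 CPM in the mvp-/- sham libraries (log2 fold change 1.3, SE 0.09, adjusted p = 7.12e-07). Among cathepsins, lysosomal proteases, 9 of 16 rose (median 0.666), CTSC by 1.0 and CTSD by 0.8. For cathepsin genes the number that rose was 4 to 5 without mvp-/- 7dpa replicate 3 or mvp-/- sham replicate 1, 2 or 3.

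Chemokines and their receptors rose in 15 of 48 tested members and fell in 2 (median 0.772). For chemokine genes the number that rose was 9 without mvp-/- 7dpa replicate 1 and 29 without WT 7dpa replicate 1, and the number that fell was 0 to 1 without any one of the 6 mvp-/- libraries. CXCR4 (ENSDARG00000041959), the receptor of Cxcl12, had 193, 190.3 and 195 CPM in the mvp-/- 7dpa libraries, against 99.2, 101 and 98 CPM in the mvp-/- sham libraries (log2 fold change 0.95, SE 0.12, adjusted p = 0.000113), and its ligand gene cxcl12b rose by 0.58. The receptor genes CCR9 and ccr12b.2 rose by 2.27 and 1.96. In the interferon list 7 of 39 tested genes rose and 0 fell (median 0.352), against 12.9% higher and 13.4% lower over all genes. For interferon genes the number that rose was 3 to 4 without mvp-/- 7dpa replicate 3 or mvp-/- sham replicate 1, 2 or 3 and 17 without WT 7dpa replicate 1, and the number that fell was 2 without WT 7dpa replicate 1. The guanylate binding protein gene gbp1 rose by 1.25 and PSMB9, of the immunoproteasome, by 1.32, while b2m (0.08) was not called. All 6 tested class II chains rose, from 0.75 for mhc2d4b to 6.05 for mhc2dab, and mhc2daa had 104, 107 and 113 CPM in the mvp-/- 7dpa libraries, against 30.3, 33.9 and 36.1 CPM in the mvp-/- sham libraries (log2 fold change 1.69, SE 0.29, adjusted p = 0.00105). For class II chains the number that rose was as low as 4 when an mvp-/- library was left out. Of 16 matched chains 10 were not tested. These genes belong to a family of close copies, between which reads could have been split. Neutrophil markers rose in 6 of 14 tested members, MMP9 by 1.32, while the defining marker lyz did not pass the filter on low counts. For neutrophil genes the number that rose was 4 of 16 tested without mvp-/- 7dpa replicate 1 or mvp-/- sham replicate 1 or 2. Without WT 7dpa replicate 1 the number that rose was 10 and the number that fell was 1. In the tumour necrosis factor family 8 of 18 tested ligand and receptor genes rose, tnfb by 1.87. For tumour necrosis factor genes the number that rose was 3 to 4 without mvp-/- 7dpa replicate 1 or 3 or mvp-/- sham replicate 1, 2 or 3 and 13 without WT 7dpa replicate 1. Lymphocyte markers rose in 4 and fell in 4 of 26 tested members, near the 12.9% higher and 13.4% lower over all genes. For lymphocyte genes the number that rose was 11 without WT 7dpa replicate 1, and the number that fell was 2 without mvp-/- 7dpa replicate 1 or 3 or mvp-/- sham replicate 1 or 2 or WT sham replicate 1, 2 or 3.

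Endothelial markers fell more often than they rose. Of 38 tested genes of endothelium and endocardium 11 fell and 3 rose (median -0.146), and the summed level was 1281 to 1323 CPM in the mvp-/- 7dpa libraries and 1523 to 1535 CPM in the mvp-/- sham libraries. For endothelial genes the number that rose was 1 without mvp-/- 7dpa replicate 2 or mvp-/- sham replicate 2 and 5 without WT 7dpa replicate 1. The defining marker cdh5, the cadherin of endothelial junctions, had 86.2, 86.2 and 75.4 CPM in the mvp-/- 7dpa libraries, against 134, 127 and 111 CPM in the mvp-/- sham libraries (log2 fold change -0.59, SE 0.10, adjusted p = 0.00117). The other defining marker, kdrl, a receptor of vascular endothelial growth factor, fell by 0.34 (adjusted p = 0.00151). APLN, the apelin ligand of growing vessels, had 88.6, 90.2 and 85.2 CPM in the mvp-/- 7dpa libraries, against 172, 174 and 161 CPM in the mvp-/- sham libraries (log2 fold change -0.94, SE 0.07, adjusted p = 1.54e-06). Both cdh5 and APLN were low in every 7dpa library without overlap. The members that rose were AQP1 (0.67), vwf, the von Willebrand factor (0.35), and EGFL7 (0.26). Among angiogenic ligands and guidance genes 12 of 36 rose and 4 fell. For angiogenic genes the number that fell was 7 without WT 7dpa replicate 1. VEGFA (ENSDARG00000034700), the main angiogenic growth factor, had 173, 174 and 174 CPM in the mvp-/- 7dpa libraries, against 302, 306 and 285 CPM in the mvp-/- sham libraries (log2 fold change -0.78, SE 0.08, adjusted p = 1.37e-05), while VEGFA (ENSDARG00000103542) was not called (0.31). SEMA3D and SEMA3E, secreted semaphorins, rose by 0.83 and 1.11. In the Notch pathway 6 of 28 tested genes fell and 3 rose, against 13.4% lower and 12.9% higher over all genes. For Notch genes the number that rose was 5 without WT 7dpa replicate 1, and the number that fell was 2 to 3 without any one of the 6 mvp-/- libraries. NOTCH1 (ENSDARG00000052094) fell by 0.73 and the glycosyltransferase gene mfng rose by 0.83.

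The counts in the signalling pathways stand against 12.9% of all genes higher and 13.4% lower. In the Wnt list 12 of 45 rose and 3 fell (median 0.24), and several secreted antagonists were among the rises. dkk1b, which blocks the Wnt co-receptors, had 4.34, 3.8 and 4.25 CPM in the mvp-/- 7dpa libraries, against 0.41, 0.556 and 0.555 CPM in the mvp-/- sham libraries (log2 fold change 3.01, SE 0.28, adjusted p = 9.32e-06). notum1b, which removes the lipid of Wnt ligands, rose by 1.48 and WIF1, a Wnt binding protein, by 1.74. The agonist RSPO3 also rose, with 58.6, 61.9 and 61.9 CPM in the mvp-/- 7dpa libraries, against 26.8, 28.7 and 30.2 CPM in the mvp-/- sham libraries (log2 fold change 1.09, SE 0.08, adjusted p = 1.03e-06), while ROR2 (-0.72), LRP5 (-0.67) and RSPO1 (-0.59) fell. For Wnt genes the number that fell was 1 without mvp-/- sham replicate 1 and 5 to 9 without mvp-/- sham replicate 3 or WT 7dpa replicate 1 or 2. Of the neuregulin and Erbb genes 2 of 11 rose and 2 fell. HBEGF, a ligand of Erbb receptors, had 10.4, 8.34 and 8.79 CPM in the mvp-/- 7dpa libraries, against 1.64, 1.72 and 1.3 CPM in the mvp-/- sham libraries (log2 fold change 2.56, SE 0.22, adjusted p = 4.19e-06), and its paralog hbegfa fell by 0.75. NRG1, a mitogen of cardiomyocytes, rose by 0.73, with a mean of 2.51 ± 0.112 CPM at 7dpa and 1.5 ± 0.26 CPM after sham surgery (SD, n = 3 each), and its receptor gene ERBB4 (ENSDARG00000090408) fell by 0.69, while ERBB2 was not called (-0.07). For neuregulin and Erbb genes the number that rose was 1 without mvp-/- 7dpa replicate 1, 2 or 3 or mvp-/- sham replicate 1 or 2, and the number that fell was 1 without mvp-/- 7dpa replicate 1 or 3 or mvp-/- sham replicate 1 or 2.

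Of the transforming growth factor beta, activin and Bmp genes 6 of 43 rose and 4 fell, against 12.9% higher and 13.4% lower over all genes, shares near those of the list. For Tgf-beta and Bmp genes the number that rose was 12 without WT 7dpa replicate 1, and the number that fell was 8 without WT 7dpa replicate 1. INHBA, an activin subunit, had 14.8, 16.3 and 15.9 CPM in the mvp-/- 7dpa libraries, against 7.95, 6.67 and 6.71 CPM in the mvp-/- sham libraries (log2 fold change 1.14, SE 0.11, adjusted p = 1.38e-05), BMP6 rose by 1.43 and TGFB3 fell by 0.55. In the insulin-like growth factor list 3 of 23 rose and 7 fell. For insulin-like growth factor genes the number that rose was 1 without mvp-/- sham replicate 2, and the number that fell was 4 without mvp-/- 7dpa replicate 2 or mvp-/- sham replicate 3. The receptor gene IGF1R (ENSDARG00000034434) fell by 1.03 and the ligand gene igf2b rose by 0.57. In the interleukin 6 and Stat3 list 6 of 15 rose and 3 fell. SOCS3 (ENSDARG00000026611) and SOCS3 (ENSDARG00000025428), inhibitors induced by Stat3, rose by 1.06 and 0.63, the cytokine receptor genes il6r and lifrb by 1.2 and 1.4, and CISH fell by 1.12.

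Immediate early genes, which answer a stimulus within minutes, rose in part. Of 35 tested members 12 rose and 3 fell (median 0.184), against 12.9% higher and 13.4% lower over all genes. The falls are thus not read as a change of the list. For immediate early genes the number that fell was 7 without WT 7dpa replicate 1. FOS, a partner in the Ap1 transcription factor, had 125, 119 and 117 CPM in the mvp-/- 7dpa libraries, against 55, 59.3 and 60.04 CPM in the mvp-/- sham libraries (log2 fold change 1.05, SE 0.13, adjusted p = 0.000117), and JUNB (ENSDARG00000074378) rose by 0.82. ATF3, a stress-induced transcription factor gene, had 352, 346 and 337 CPM in the mvp-/- 7dpa libraries, against 565, 566 and 550.4 CPM in the mvp-/- sham libraries (log2 fold change -0.7, SE 0.06, adjusted p = 6.65e-06). NR4A3, an orphan nuclear receptor gene, had 39.5, 41.3 and 35.9 CPM in the mvp-/- 7dpa libraries, against 91.4, 93.5 and 95.5 CPM in the mvp-/- sham libraries (log2 fold change -1.26, SE 0.09, adjusted p = 1.24e-06). Fos and Junb thus stood higher at 7dpa and Atf3 and Nr4a3 lower, each without overlap. Of 29 hypoxia genes 10 fell, VEGFA among them, and 4 rose, ADM (ENSDARG00000069027) by 0.94. For hypoxia genes the number that rose was 1 to 2 without mvp-/- sham replicate 1, 2 or 3, and the number that fell was 6 without mvp-/- 7dpa replicate 3. The hypoxia factor partner gene arnt fell by 1.35.

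Counts in the lists of cell death and of redox and iron metabolism stand against 12.9% of all genes higher and 13.4% lower. In the cell death execution list 7 of 28 rose and 1 fell, and the caspase gene caspa rose by 1.27. For cell death genes the number that rose was 3 to 4 without mvp-/- 7dpa replicate 1 or 3 or mvp-/- sham replicate 1, 2 or 3, and the number that fell was 2 to 5 without WT 7dpa replicate 1, 2 or 3. In the Bcl2 family, which controls the release of cytochrome c, 2 of 24 rose and 5 fell. For Bcl2 family genes the number that rose was 1 without mvp-/- 7dpa replicate 1, 2 or 3 or mvp-/- sham replicate 1 or 2, and the number that fell was 3 without mvp-/- 7dpa replicate 1 or mvp-/- sham replicate 1. Among antioxidant genes 5 of 44 rose and 9 fell. For antioxidant genes the number that rose was 3 without mvp-/- 7dpa replicate 1 or 3 or mvp-/- sham replicate 1, 2 or 3 and 8 without WT 7dpa replicate 1, and the number that fell was 14 without WT 7dpa replicate 1. gpx4a, which repairs lipid peroxides, fell by 0.63 and NQO1 by 0.6. In the iron and haem list 8 of 34 rose and 4 fell. For iron genes the number that rose was 4 to 5 without mvp-/- 7dpa replicate 1 or 3 or mvp-/- sham replicate 1, 2 or 3, and the number that fell was 8 without WT 7dpa replicate 1. The transferrin gene tfa, the iron carrier of plasma, had 286, 281 and 293 CPM in the mvp-/- 7dpa libraries, against 77.3, 82.5 and 83.3 CPM in the mvp-/- sham libraries (log2 fold change 1.82, SE 0.08, adjusted p = 2.48e-08).

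Counts in the lists of protein synthesis stand against 12.9% of all genes higher and 13.4% lower. Of 82 tested cytosolic ribosomal protein genes 7 rose and 1 fell (median 0.128). For cytosolic ribosome genes the number that rose was 3 without mvp-/- 7dpa replicate 1 or 3 or mvp-/- sham replicate 1, 2 or 3 or WT sham replicate 1 and 19 without WT 7dpa replicate 1, and the number that fell was 0 without mvp-/- 7dpa replicate 1, 2 or 3 or mvp-/- sham replicate 1, 2 or 3 or WT 7dpa replicate 2 or 3 or WT sham replicate 1. In the fit of the 6 mvp-/- libraries alone 37 of them rose. In ribosome biogenesis 9 of 66 rose and 4 fell, and the rises are near the share over all genes. In the fit of the 6 mvp-/- libraries alone 28 genes of ribosome biogenesis rose. FBL, the methyltransferase of ribosomal RNA, was at 0.41, and the nucleolar gene npm1b at 1.31. For ribosome biogenesis genes the number that rose was 2 to 5 without mvp-/- 7dpa replicate 1, 2 or 3 or mvp-/- sham replicate 1 or 2 and 27 without WT 7dpa replicate 1, and the number that fell was 2 without mvp-/- sham replicate 2 or 3. Annexins, membrane-binding proteins, rose in 6 of 11 tested members, ANXA2 by 1.03 with a mean of 2158 ± 62.2 CPM at 7dpa and 1057 ± 39.2 CPM after sham surgery (SD, n = 3 each), and fell in 1.

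Markers of blood and of tissues outside the ventricle were followed for the make-up of the samples. Of 18 tested erythroid genes 5 rose and 2 fell (median 0.193), against 12.9% higher and 13.4% lower over all genes. The log2 fold change was above 0 for 10 members and below 0 for 8, so the list did not move together. The summed level of the list was 1399 to 1495 CPM in the mvp-/- 7dpa libraries and 887 to 914 CPM in the mvp-/- sham libraries. The globin gene hbaa2 had 119, 97.5 and 139 CPM in the mvp-/- 7dpa libraries, against 21.4, 23.6 and 24.7 CPM in the mvp-/- sham libraries (log2 fold change 2.35, SE 0.59, adjusted p = 0.0104), and cahz, the carbonic anhydrase of red cells, rose by 1.33, while CREG1 fell by 1.04. For erythroid genes the number that rose was 3 without mvp-/- sham replicate 1 and 8 without WT 7dpa replicate 1, and the number that fell was 5 without WT 7dpa replicate 1. The part of blood content in the other changes was not tested. The thrombocyte marker itga2b was not called (0.26). Of 16 matched liver genes 2 could be tested, of which tfa rose, as given above, and of 9 matched kidney genes 2 could be tested, neither of them called. For liver genes the number that rose was 2 without WT 7dpa replicate 1. Of these lists 4 liver and 3 kidney genes had no count in any mvp-/- library. Skeletal muscle markers rose in 1 and fell in 3 of 11 tested genes, the falls including both ACTA1 genes, which heart muscle also expresses. For skeletal muscle genes the number that rose was 0 without mvp-/- 7dpa replicate 3 and 2 without WT 7dpa replicate 1, 2 or 3 or WT sham replicate 1, 2 or 3. The skin and gill marker krt4 was at 599 ± 22.5 CPM at 7dpa and 491 ± 7.21 CPM after sham surgery (SD, n = 3 each) and not called (0.29, adjusted p = 0.0884).

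**Figure D3:**
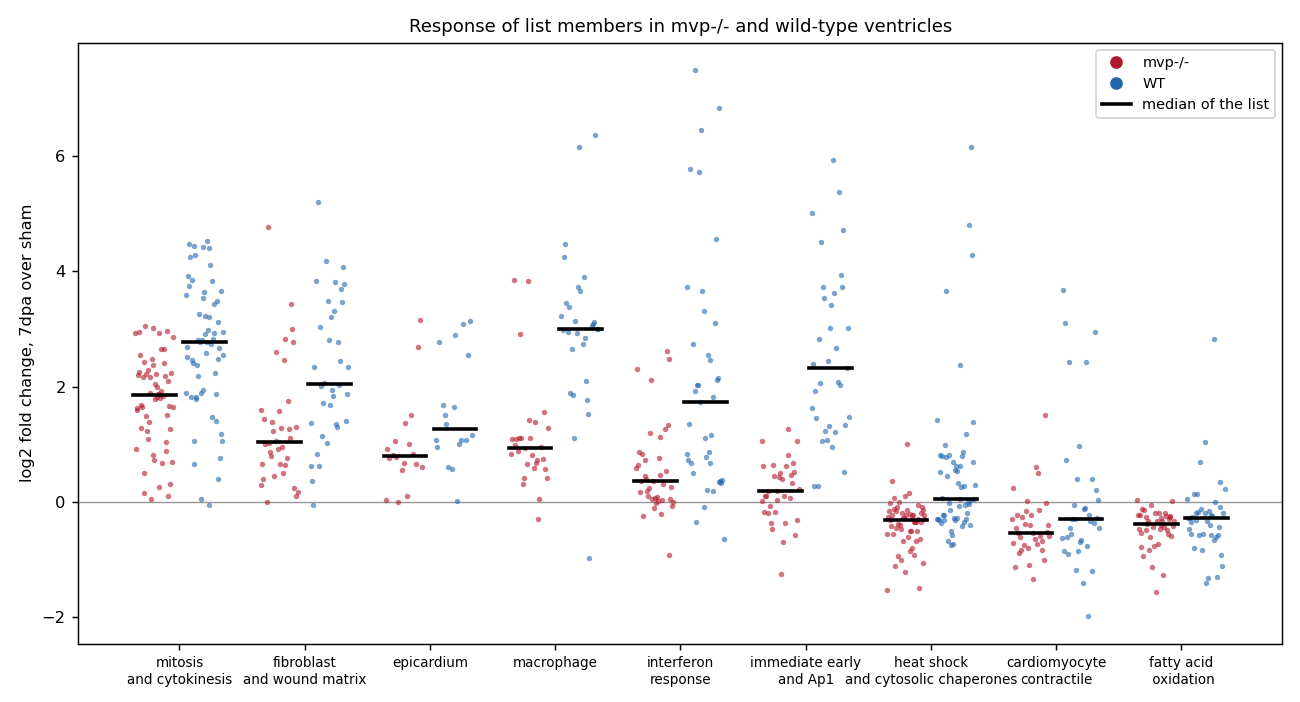
Log2 fold change of 7dpa over sham (vertical axis) for each tested member of the gene lists named below the axis, in mvp-/- hearts (red, left) and WT hearts (blue, right), with the median of each list as a black bar. The medians for immediate early genes were 0.184 in mvp-/- and 2.33 in WT hearts, and those for heat shock and cytosolic chaperones were -0.316 in mvp-/- and 0.053 in WT hearts.

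The mvp-/- response was then set against that of WT hearts, in which 9862 genes were called, or 59.4%, with 5243 higher (31.6%) and 4619 lower (27.8%). The responses of the genotypes share no library. Of the 2150 genes that rose in mvp-/- hearts 1539 also rose in WT hearts, 199 fell and 412 were not called. Of the 2222 genes that fell in mvp-/- hearts 1253 also fell in WT hearts, 361 rose and 608 were not called. The difference of the responses (mvp-/- minus WT) was called for 5819 genes, or 35%, with 2517 higher (15.2%) and 3302 lower (19.9%). Counts of list members in the difference stand against these shares. Without WT 7dpa replicate 1 it was called for 8516 genes.

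A part of the cell cycle genes rose less in mvp-/- than in WT hearts. Genes of mitosis and cytokinesis had a median log2 fold change of 1.849 in mvp-/- and 2.771 in WT hearts, and the difference was called lower for 20 of 60 members and higher for 0. For mitosis and cytokinesis genes the difference was called lower in 13 without mvp-/- sham replicate 2. For DNA replication the medians were 0.976 in mvp-/- and 1.31 in WT hearts, with 20 of 50 lower and 4 higher. For DNA replication genes the difference was called lower in 12 to 13 without mvp-/- sham replicate 2 or 3 or WT 7dpa replicate 2 or WT sham replicate 1 or 2. MCM3 rose by 2.41 in mvp-/- and 3.26 in WT hearts (difference -0.85, SE 0.18, adjusted p = 0.00308), with 50.5, 64 and 59.4 CPM in the WT 7dpa libraries, against 7.57, 5.31 and 5.3 CPM in the WT sham libraries. At 7dpa every mvp-/- library lay below every WT library, while after sham surgery the genotypes overlapped. MCM2 also rose less in mvp-/- hearts (difference -1.07, SE 0.22, adjusted p = 0.00227). TOP2A (difference -0.08, SE 0.37, adjusted p = 0.896) and CCNA2 (difference -0.66, SE 0.25, adjusted p = 0.0814) were not called as different, and PRIM2 rose more in mvp-/- hearts (difference 1.79, SE 0.26, adjusted p = 0.000188). Over the mitosis list the median log2 ratio of mvp-/- to WT was -1.298 at 7dpa and -0.213 after sham surgery, a description without a test.

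Matrix genes rose less as well, and their sham levels differed between the genotypes. The medians were 1.033 in mvp-/- and 2.04 in WT hearts for the fibroblast and wound matrix list, with the difference called lower for 19 of 36 members and higher for 1. They were 0.79 in mvp-/- and 1.256 in WT hearts for the epicardium, with 7 of 18 lower. For fibroblast and wound matrix genes the difference was called higher in 0 without mvp-/- 7dpa replicate 1 or 3 or mvp-/- sham replicate 1, 2 or 3 or WT 7dpa replicate 2 or 3 or WT sham replicate 1, 2 or 3 and 5 without WT 7dpa replicate 1. For epicardium genes the difference was called higher in 4 without WT 7dpa replicate 1. Here the median log2 ratio of mvp-/- to WT was 0.008 at 7dpa and 0.751 after sham surgery for the fibroblast list, and 0.008 at 7dpa and 0.493 after sham surgery for the collagens. FN1 (ENSDARG00000006526), given above for mvp-/- hearts, had 1557, 1143 and 1128 CPM in the WT 7dpa libraries, against 156, 146 and 163 CPM in the WT sham libraries (difference -2.18, SE 0.15, adjusted p = 3.51e-07). The mvp-/- sham libraries were far above the WT sham libraries, while at 7dpa the genotypes overlapped. The COL12A1 genes (difference -0.44, SE 0.55, adjusted p = 0.571 for ENSDARG00000019601 and difference -0.27, SE 0.34, adjusted p = 0.58 for ENSDARG00000078322) and TBX18 (difference -0.00, SE 0.24, adjusted p = 0.993) were not called as different.

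Macrophage genes had a median log2 fold change of 0.929 in mvp-/- and 2.998 in WT hearts, and the difference was called lower for 22 of 29 members and higher for 1. The median log2 ratio of mvp-/- to WT was -0.757 at 7dpa and 1.003 after sham surgery, so that the median was above the WT level after sham surgery and below it at 7dpa. For macrophage genes the difference was called higher in 0 without mvp-/- 7dpa replicate 2 or 3 or mvp-/- sham replicate 1 or 3 or WT 7dpa replicate 3 or WT sham replicate 2 or 3 and 2 without WT 7dpa replicate 1. MPEG1 (ENSDARG00000055290) had 78.8, 225 and 223 CPM in the WT 7dpa libraries, against 25.2, 23.5 and 24.7 CPM in the WT sham libraries (difference -1.45, SE 0.39, adjusted p = 0.0115). WT 7dpa replicate 1 lay below the mvp-/- 7dpa libraries and the other replicates above them. For the interferon list the medians were 0.352 in mvp-/- and 1.733 in WT hearts. The difference was called lower for 11 of 39 members. For interferon genes the difference was called lower in 6 to 7 without mvp-/- 7dpa replicate 1, 2 or 3 or mvp-/- sham replicate 1 or 2 or WT 7dpa replicate 2 or 3 or WT sham replicate 1 or 3 and 34 without WT 7dpa replicate 1. apoeb rose by 3.84 in mvp-/- and 3.74 in WT hearts, a difference that was not called (difference 0.1, SE 0.15, adjusted p = 0.62).

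Stress genes differed widely between the genotypes. Immediate early genes had a median of 0.184 in mvp-/- and 2.33 in WT hearts, and the difference was called lower for 29 of 35 members and higher for 0. ATF3 had 198, 195 and 187 CPM in the WT 7dpa libraries, against 3.28, 3.43 and 2.78 CPM in the WT sham libraries, and its response was opposite in direction (difference -6.63, SE 0.11, adjusted p = 2.7e-13). The median log2 ratio of mvp-/- to WT over this list was 0.377 at 7dpa and 2.383 after sham surgery, where 34 of 35 members were higher in mvp-/-. Among heat shock and cytosolic chaperone genes the difference was called lower for 27 of 57 and higher for 5. For cytosolic chaperones the difference was called higher in 2 to 3 without mvp-/- 7dpa replicate 1, 2 or 3 or mvp-/- sham replicate 1, 2 or 3 or WT sham replicate 1 or 2. hspa1b had 159, 123 and 115 CPM in the WT 7dpa libraries, against 4.73, 5.23 and 4.27 CPM in the WT sham libraries (difference -6.31, SE 0.16, adjusted p = 3.72e-11), so that it fell in mvp-/- hearts and rose in WT hearts, and the mvp-/- level was above the WT level in both states. The mvp-/- sham libraries were thus the highest group for ATF3 and hspa1b and the WT sham libraries the lowest.

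Several cardiomyocyte genes also stood far higher in mvp-/- sham than in WT sham libraries, though their mvp-/- responses were not all falls. ACTA1 (ENSDARG00000036371) fell in mvp-/- hearts, while in WT hearts it had 1561, 1573 and 1556 CPM in the WT 7dpa libraries, against 298, 306 and 273 CPM in the WT sham libraries (difference -3.31, SE 0.09, adjusted p = 4.51e-11). The mvp-/- libraries lay slightly below the WT libraries at 7dpa and far above them after sham surgery. nppb, not called in mvp-/- hearts, had 725, 954 and 1025 CPM in the WT 7dpa libraries, against 71.1, 76.3 and 64.7 CPM in the WT sham libraries (difference -3.44, SE 0.16, adjusted p = 1.32e-08), and ANKRD1 had 42.2, 77.6 and 78.2 CPM in the WT 7dpa libraries, against 0.43, 0.659 and 1.03 CPM in the WT sham libraries (difference -5.44, SE 0.35, adjusted p = 1.53e-07). Both were at far higher levels in mvp-/- sham than in WT sham libraries. Over the contractile list, in contrast, the medians were -0.537 in mvp-/- and -0.309 in WT hearts, and the difference was called lower for 13 of 35 and higher for 4. For cardiomyocyte contractile genes the difference was called higher in 2 without mvp-/- 7dpa replicate 1, 2 or 3 or mvp-/- sham replicate 2 and 8 without WT 7dpa replicate 1. The falls of MYH7 (difference 0.27, SE 0.12, adjusted p = 0.103) and TNNT2 (ENSDARG00000020610) (difference 0.29, SE 0.15, adjusted p = 0.135) were not called as different. Fatty acid oxidation gave medians of -0.39 in mvp-/- and -0.29 in WT hearts. Its difference was called for 8 lower and 6 higher of 41 genes, near the 19.9% lower and 15.2% higher over all genes. For fatty acid oxidation genes the difference was called higher in 3 without mvp-/- sham replicate 1. VEGFA (ENSDARG00000034700) fell in mvp-/- hearts but was at 191, 157 and 160.3 CPM in WT 7dpa and 149, 161 and 152 CPM in WT sham libraries (difference -0.92, SE 0.11, adjusted p = 3.46e-05). Genes of the mitochondrial genome had median log2 fold changes of -0.134 in mvp-/- and -0.778 in WT hearts, and the difference was called higher for 10 of 13 genes. Their sham levels differed, since all 13 were lower in mvp-/- than in WT sham libraries (median log2 ratio -0.733), against a median of -0.054 at 7dpa.

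**Figure D4:**
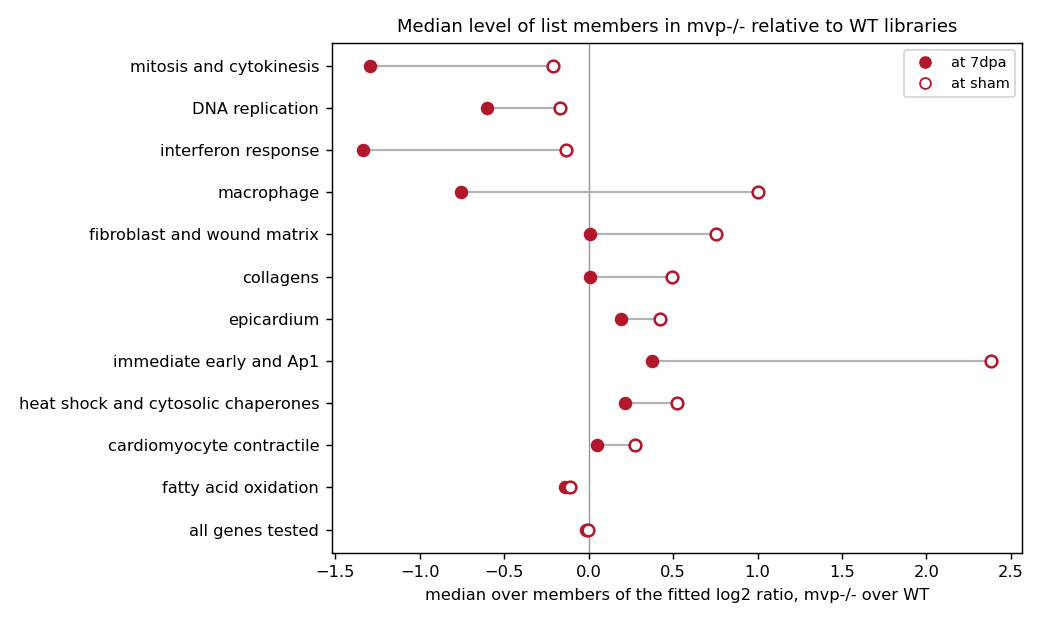
Median over the tested members of each gene list (vertical axis) of the fitted log2 ratio of mvp-/- to WT level (horizontal axis), at 7dpa (filled) and after sham surgery (open). The cell cycle and interferon lists lie near 0 after sham surgery and below 0 at 7dpa, the fibroblast and collagen lists near 0 at 7dpa and above 0 after sham surgery, and the immediate early list reaches 2.383 after sham surgery.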

How the data were processed

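Ventricle RNA of mvp-/- and wild-type (WT) zebrafish, 7 days post amputation (7dpa) or after sham surgery, was sequenced in 3 libraries per group. Per the labels and the study's methods the authors aligned reads with HISAT2 2.1.0 to GRCz11, sorted with SAMtools 1.10 and counted with featureCounts 1.6.0. The deposited values are raw counts per Ensembl gene, without normalization. The annotation release and the strand setting are not given in the sources used here, so overlapping and antisense genes, near-identical copies and multigene families are uncertain. The authors' own differential test was DESeq2. Groups were taken from the labels. Library totals ranged from 21356163 to 26684651 counts, and the floor of 3 counts covers counting error only. The counts were tested with edgeR 4.0.16 (R 4.3.3) by the quasi-likelihood test, with filterByExpr, TMM scaling, all 12 libraries in one model and Benjamini-Hochberg adjustment over the 16604 genes kept. A gene was called at an adjusted p under 0.05. The contrasts were mvp-/- 7dpa minus mvp-/- sham, WT 7dpa minus WT sham, and the difference of these responses. CPM values use TMM-scaled library sizes. Symbols came from a gene name table, and gene lists were matched by symbol. Named genes were the vault genes, the 12 largest rises and falls among called genes with a mean of at least 1 CPM and states that did not overlap, per list up to 6 called each way and the 4 highest, and the 5 largest differences of the responses in each direction. Some of the defining cell type markers, other copies of a named gene and the lipid droplet genes were named besides, the last 2 kinds after their values were seen. The defining markers mpx of neutrophils and mylpfa of skeletal muscle were not matched by symbol. The members and lists were chosen with earlier results of these data known. The procedure was also run on simulated counts. These held no outlying library and no shift in scaling between the groups, so that run cannot speak for such features of the data. Alternatives were DESeq2 1.42.0, other scalings and filters, a replicate block, the 6 mvp-/- libraries alone and leaving out each library. Genome sequence was not used here, and some genes that the naming rule gives are not reported here.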

Additional observations from a re-analysis of the deposited data

Results flagged for a closer look

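The mvp-/- and WT responses differed by a test of the difference for 5819 genes, and the genes with the largest differences in each direction are given with their levels. The fitted differences of genes with a group at or near 0 depend on the prior count and are no bounds. No explanation for them was tested.

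OIT3 had 3.84, 4.29 and 2.94 CPM in mvp-/- 7dpa and 0.0513, 0 and 0.0925 CPM in mvp-/- sham libraries, and 0.0349, 0.28 and 0.255 CPM in WT 7dpa and 2.69, 2.37 and 2.93 CPM in WT sham libraries (difference 9.87 on the log2 scale). zgc:101699 had 3.57, 3.14 and 3.97 CPM in mvp-/- 7dpa and 0.103, 0.101 and 0.0463 CPM in mvp-/- sham libraries, and 0.175, 2.76 and 1.88 CPM in WT 7dpa and 3.97, 3.87 and 3.4 CPM in WT sham libraries (difference 6.58 on the log2 scale). mhc1zda had 10.2, 8.38 and 8.55 CPM in mvp-/- 7dpa and 0.872, 1.16 and 0.925 CPM in mvp-/- sham libraries, and 0.489, 2.28 and 2.55 CPM in WT 7dpa and 7.36, 8.48 and 7.88 CPM in WT sham libraries (difference 5.35 on the log2 scale). mhc1zea had 6.71, 7.34 and 7.24 CPM in mvp-/- 7dpa and 0.769, 0.657 and 0.601 CPM in mvp-/- sham libraries, and 0.489, 2.04 and 2.99 CPM in WT 7dpa and 5.85, 5.67 and 6.95 CPM in WT sham libraries (difference 5.12 on the log2 scale). cdh29 had 7.36, 5.98 and 4.62 CPM in mvp-/- 7dpa and 0.256, 0.152 and 0.0463 CPM in mvp-/- sham libraries, and 24.5, 9.63 and 10.9 CPM in WT 7dpa and 12.3, 12.1 and 10.2 CPM in WT sham libraries (difference 4.91 on the log2 scale).

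si:ch211-261i17.2 had 0, 0 and 0 CPM in mvp-/- 7dpa and 3.69, 3.69 and 3.7 CPM in mvp-/- sham libraries, and 6.15, 0.76 and 0.987 CPM in WT 7dpa and 0, 0 and 0 CPM in WT sham libraries (difference -18.39 on the log2 scale). F13A1 (ENSDARG00000045453) had 128, 133 and 122 CPM in mvp-/- 7dpa and 192, 197 and 201 CPM in mvp-/- sham libraries, and 776, 205 and 200.4 CPM in WT 7dpa and 0.161, 0.132 and 0.309 CPM in WT sham libraries (difference -11.55 on the log2 scale). mhc2dgb had 22.8, 19.6 and 21.9 CPM in mvp-/- 7dpa and 10.5, 10.3 and 10.3 CPM in mvp-/- sham libraries, and 25.2, 31.3 and 34.4 CPM in WT 7dpa and 0, 0 and 0 CPM in WT sham libraries (difference -11.42 on the log2 scale). mhc2dga had 8.8, 11.6 and 10.3 CPM in mvp-/- 7dpa and 5.59, 5.46 and 6.24 CPM in mvp-/- sham libraries, and 14.4, 25.9 and 26.6 CPM in WT 7dpa and 0, 0 and 0 CPM in WT sham libraries (difference -11.2 on the log2 scale). mhc2dhb had 38.2, 33 and 40.03 CPM in mvp-/- 7dpa and 16.9, 16.6 and 13.6 CPM in mvp-/- sham libraries, and 47.8, 54.9 and 59.5 CPM in WT 7dpa and 0, 0.132 and 0 CPM in WT sham libraries (difference -8.71 on the log2 scale). The mhc1 and mhc2 genes belong to families of close copies, between which reads could have been split.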

How the results depend on the processing

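The number of genes called in mvp-/- hearts (4372) was 7072 in the fit of the 6 mvp-/- libraries alone, and members called over all gene lists were 1381 against 906. With a change of at least 1 on the log2 scale required as well, 1266 genes were called in mvp-/- hearts, 3074 in the difference of the responses and 4674 in WT hearts, and the alternatives for the WT response, leaving out libraries included, were chosen after seeing the data. Leaving out 1 library at a time gave 3088 to 7039 genes in mvp-/- hearts, 8986 to 11444 in WT hearts and 4820 to 8516 in the difference, each highest without WT 7dpa replicate 1. No main call of the mvp-/- response was reversed by any alternative that tested the gene, but of the 186 called genes named in the text 34 lost the call without 1 of the 12 libraries, and of the 25 named as not called 12 were called under at least 1 alternative. DESeq2 called 4289 genes in mvp-/- hearts, of which 2045 rose and 2244 fell. Samples with the same replicate number showed little shared deviation (correlations of 0.0378, 0.0122 and 0.0141 in mvp-/- hearts). Part of the deviation between libraries this close is counting noise, so these values cannot decide whether the samples were paired. With the replicate number as a block 4145 genes were called in mvp-/- hearts, 2053 higher and 2092 lower, and 5521 in the difference. The cause of these shifts was not tested. Genes near the floor of 3 counts (0.116 to 0.154 CPM) could not be followed at this depth.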
